A study of Mus musculus with 13 samples.

Results

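The genes described here are 10 mouse genes known to respond to low oxygen: Hif1a, Egln1, Egln3, Vegfa, Adm, Pdk1, Car9, Ndrg1, Ddit4 and P4ha1. They were chosen by name, and 25 probe sets of the array name only 1 of them in the platform annotation. They are 10 of the 18193 genes that the array measured in this way. The study followed C2C12, an established mouse myoblast line whose cells can become muscle fibres, and searched for genes that oscillate as part of work on somites, the embryonic blocks that form muscle and vertebrae. Every culture had been grown to high confluence with 5% fetal bovine serum, kept in medium with 0.2% serum for 24 h and then returned to medium with serum. The labels name no genotype, drug or change of oxygen, and the serum content after the return is not stated. Total RNA from 1 culture at each time was hybridised to 1 Affymetrix array, and 13 arrays from 0 to 6.0 h in steps of 0.5 h are described. By labelled time they were placed in windows, 4 arrays each except that 0 h has 1: early runs from 0.5 to 2.0 h, middle from 2.5 to 4.0 h and late from 4.5 to 6.0 h. These arrays are neighbouring times and not replicates, so p-values measure the spread within windows or around a fitted curve.

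HIF-1 is a transcription factor made of an oxygen-controlled alpha subunit, encoded by Hif1a, and a stable partner encoded by Arnt. In the presence of oxygen, prolyl hydroxylases encoded by the Egln genes mark the alpha protein for ubiquitination by the von Hippel-Lindau complex and for destruction. When oxygen is low the alpha protein persists, and HIF binds a short core, ACGTG or GCGTG, near its target genes. The arrays measure messenger RNA, so the amount of HIF protein was not measured. Several of the targets also answer to growth factors, nutrients and stress.

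Each value is a ratio of an array to an unstated reference value of the same probe set, so it carries changes over time and no absolute level, and genes cannot be ranked by abundance. Array medians lay between 0.977 and 1.00, and the spread of log2 ratios (SD) fell between 0.188 and 0.318, with the widest at 0 h. In bulk RNA, fewer cells of a type and less RNA per cell cannot be told apart. Without levels, the myoblast label could not be checked against markers. The mean ratio over 10 myoblast markers was 0.991 at 0 h and lay within 0.904 and 1.06 on the other arrays. Late against early, 0 of these 10 were higher or lower. Single ones did move, as 1 was higher early than at 0 h (1.46% of all genes). In the middle window 1 was lower than early (14.4%). A smooth course over time, by the spline test described below, passed for 5 of these 10 (38.0% of all genes). Markers of differentiated muscle, in contrast, moved late. In that window, beside 11.7% and 9.29% of all genes, 8 of 10 of these markers were higher and 1 lower than early. Their mean ratio was 0.843 to 1.04 on early arrays and 1.11 to 1.21 on late arrays. Of 11 endothelial and blood markers, 0 were higher and 1 was lower late, and of 6 fibroblast markers 0 and 2. The same shares of all genes apply to these counts. The 5′ control probe set for 18S rRNA ran from 0.411 to 1.40 on early and from 0.889 to 5.24 on late arrays. The 3′ and M ones for 18S rRNA moved less, reaching at most 1.57 and 1.40. The 5′ control for Gapdh stayed within 0.935 and 1.07 on all 13 arrays. The part of these shifts in the results below was not tested.

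**Figure D1:**
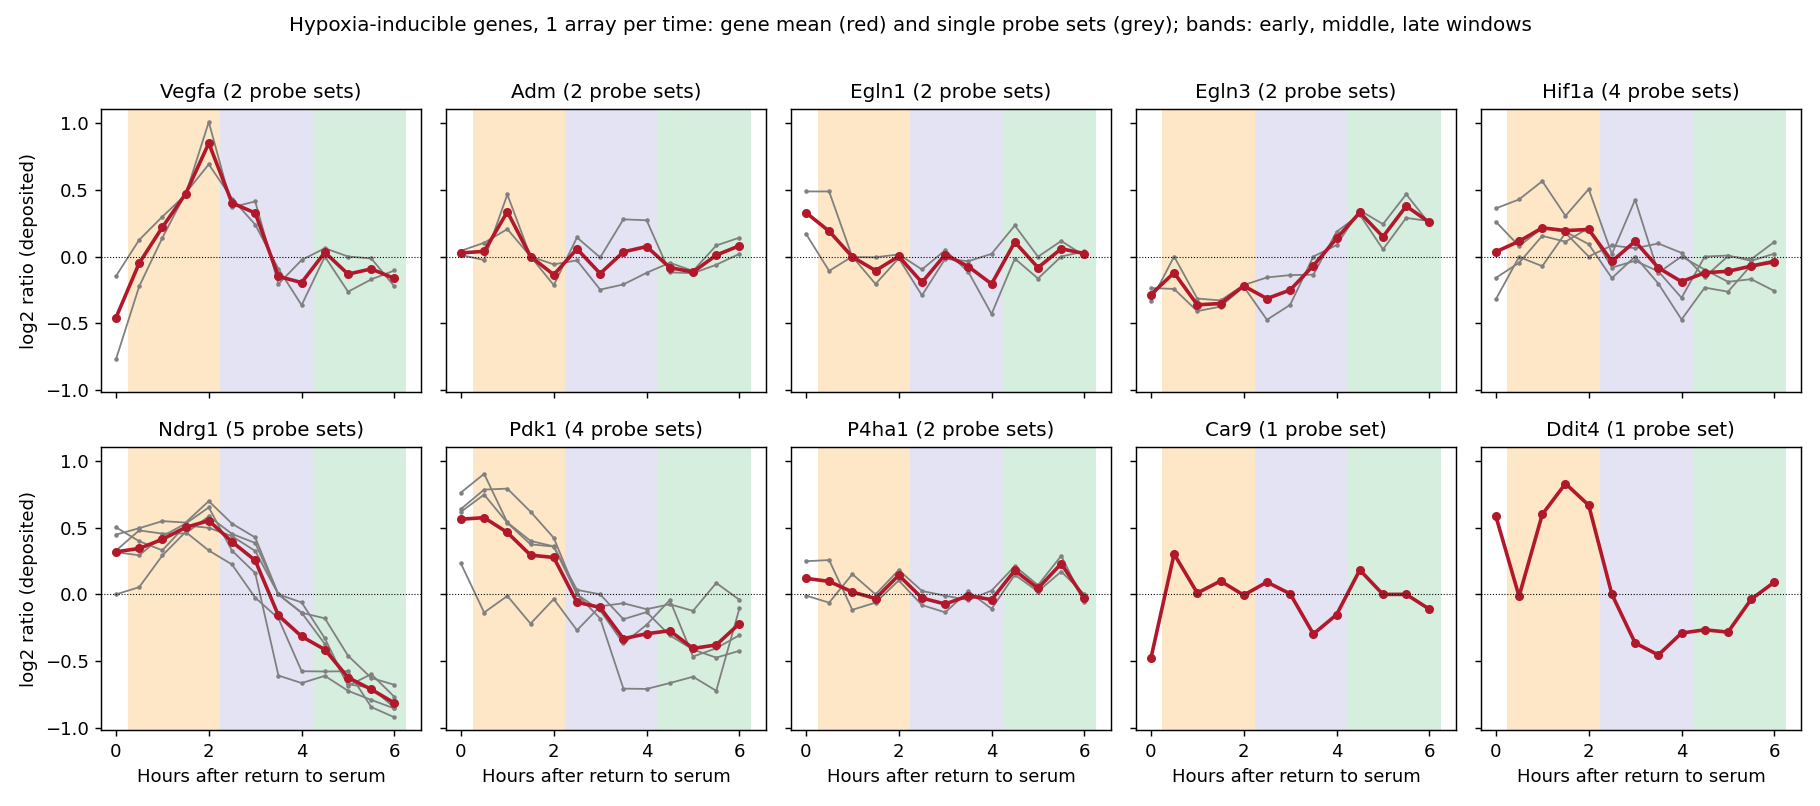
Deposited log2 ratio (y axis, linear in log2 units, where 0 is the reference of the probe set) against hours after the return to serum (x axis) for each of the 10 genes; red is the mean over the probe sets of the gene, grey lines are single probe sets, and bands mark the early, middle and late windows. Vegfa peaks at 2.0 h, Ndrg1 and Pdk1 end far below their start, Egln3 climbs after 3.0 h, and Adm and P4ha1 stay near 0.

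The 10 genes did not share 1 course. A smooth course over time (limma, F test of a spline, Benjamini-Hochberg over 18193 genes) passed for 7 of 10 genes, Vegfa, Egln1, Egln3, Ndrg1, Pdk1, Ddit4 and Hif1a, in a data set where 38.0% of all genes passed. From the early to the late window, 4 of 10 were lower (Ndrg1, Pdk1, Ddit4 and Hif1a) and 1 was higher (Egln3). Over all genes, 9.29% were lower and 11.7% higher in that comparison, 21.0% in all. From the early to the middle window the lower genes were again Ndrg1, Pdk1, Ddit4 and Hif1a and 0 were higher, beside 14.4% and 7.74% of all genes (22.2% in all). Both comparisons use the same early arrays. Against the single 0 h array, 1 of 10 was higher in the early window (Car9) and 0 were lower, where 1.46% and 1.81% of all genes were (3.26% in all). Of the 25 single probe sets, tested over all 45037, the smooth course passed for 17 (30.7% of all probe sets). Late against early, 12 of 25 were lower and 2 higher (7.25% and 8.08% of all probe sets, 15.3% in all). In the middle window 9 of 25 were lower and 0 higher (11.7% and 6.35%, 18.0% in all), and against 0 h 0 were called (3.02% of all probe sets, 1.56% higher and 1.46% lower). The median difference of the 10 genes was -0.18 late minus early, on a log2 scale, next to 0.02 over all genes.

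**Figure D2:**
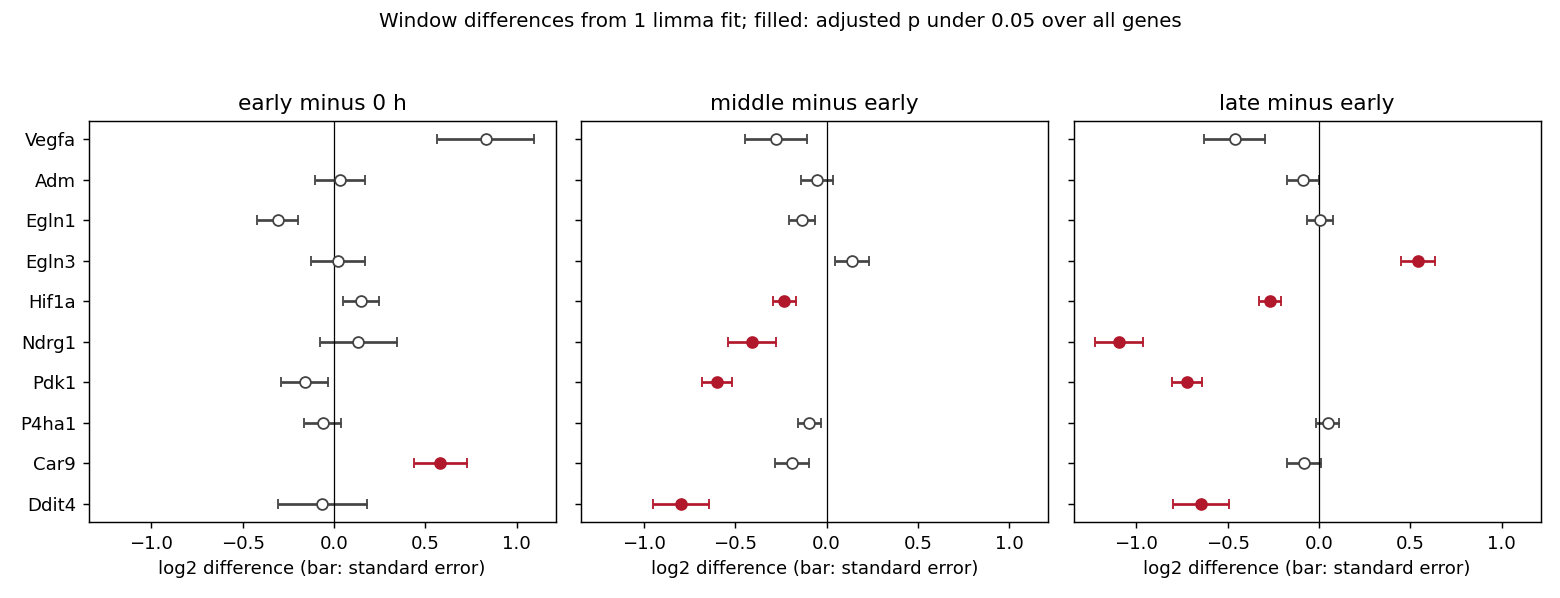
Log2 difference between windows (x axis) for each of the 10 genes (y axis) in 3 panels, with the standard error as a bar; filled red points have an adjusted p under 0.05 over all genes and open points do not. Car9 is the filled point of the first panel, and late minus early runs from -1.09 for Ndrg1 to 0.54 for Egln3.

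The promoter windows of the genes whose courses stand out are shown so that the HIF core can be seen. They are 250 bases directly before the start of the gene, from RefSeq on GRCm38.p6, written 5′ to 3′ on the strand of the gene, and capitals mark each ACGTG on either strand (read as CACGT when it lies on the other strand). Of the 10 genes, 9 had an entry, with 11 windows. The windows shown are at chr4:43506776-43507025 on the plus strand for Car9, chr12:54203875-54204124 on the minus strand for Egln3, chr10:59951771-59952020 on the minus strand for Ddit4, chr12:73907617-73907866 on the plus strand for Hif1a, chr2:71872974-71873223 on the plus strand for Pdk1, and chr17:46032378-46032627 on the minus strand for Vegfa.
Car9: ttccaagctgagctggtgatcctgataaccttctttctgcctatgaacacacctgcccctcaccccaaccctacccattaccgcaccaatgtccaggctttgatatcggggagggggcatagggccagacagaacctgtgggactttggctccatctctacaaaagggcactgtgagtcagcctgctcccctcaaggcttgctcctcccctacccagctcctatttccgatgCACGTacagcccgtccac
Egln3: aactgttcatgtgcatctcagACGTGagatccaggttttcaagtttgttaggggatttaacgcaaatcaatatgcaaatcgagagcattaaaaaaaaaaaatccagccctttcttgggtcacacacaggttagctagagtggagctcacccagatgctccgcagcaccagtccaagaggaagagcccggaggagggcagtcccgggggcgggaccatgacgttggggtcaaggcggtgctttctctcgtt
Ddit4: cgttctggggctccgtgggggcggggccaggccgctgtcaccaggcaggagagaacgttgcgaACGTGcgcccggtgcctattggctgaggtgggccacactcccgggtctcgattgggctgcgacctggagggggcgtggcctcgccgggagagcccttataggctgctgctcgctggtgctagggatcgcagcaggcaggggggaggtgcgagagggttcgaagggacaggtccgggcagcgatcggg
Hif1a: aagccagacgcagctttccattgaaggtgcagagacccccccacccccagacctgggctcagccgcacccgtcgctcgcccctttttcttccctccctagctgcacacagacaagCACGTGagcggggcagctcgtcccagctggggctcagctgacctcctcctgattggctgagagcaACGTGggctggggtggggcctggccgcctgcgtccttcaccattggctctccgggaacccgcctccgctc
Pdk1: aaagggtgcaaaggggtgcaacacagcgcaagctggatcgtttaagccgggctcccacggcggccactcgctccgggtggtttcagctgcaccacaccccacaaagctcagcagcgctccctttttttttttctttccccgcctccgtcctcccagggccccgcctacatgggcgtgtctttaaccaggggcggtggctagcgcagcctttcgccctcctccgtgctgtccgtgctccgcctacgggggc
Vegfa: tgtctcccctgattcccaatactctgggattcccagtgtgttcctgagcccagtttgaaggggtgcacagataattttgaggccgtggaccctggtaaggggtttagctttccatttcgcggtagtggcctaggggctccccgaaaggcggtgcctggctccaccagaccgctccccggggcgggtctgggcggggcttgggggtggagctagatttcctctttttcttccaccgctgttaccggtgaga
In Car9 the core lay 18 to 14 bases before the start, in Egln3 229 to 225 and in Ddit4 187 to 183. Hif1a held the palindrome CACGTG, which is the E-box core and contains ACGTG on both strands, at 135 to 130 bases, and a further ACGTG at 70 to 66. The Pdk1 and Vegfa windows shown held no ACGTG, although that of Pdk1 held 1 GCGTG. Vegfa has a second window in the table, at chr17:46025164-46025413 on the minus strand and not printed here, which held ACGTG 211 to 207 bases before its start and 1 GCGTG. By its coordinates this second window lies downstream of the start that follows the window shown, so it is not upstream of the whole gene. The same holds for a second Pdk1 window, at chr2:71874654-71874903 on the plus strand and not printed here, which held neither core. Both second windows are included in the counts that follow. Counting all 11 windows, 7 held ACGTG (63.6%) against 16.6% of the 32851 windows of the table, and 6 held GCGTG (54.5% against 28.2%). The base composition differed among the windows, from 38.4% to 86.0% G and C. The windows of Egln1 and P4ha1, not printed, also held ACGTG, at 68 to 64 and 16 to 12 bases before the start. A match is a run of letters and not a measured binding site. Genes with a match (Egln3, Ddit4, Car9, Hif1a, Egln1 and P4ha1) took different courses, and P4ha1 passed no test.

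Among the oxygen sensors, Egln3 rose late and Egln1 did not. Egln3 encodes a prolyl hydroxylase that is itself a HIF target. Its mean ratio was 0.821 at 0 h, 0.919, 0.778, 0.783 and 0.859 on the early arrays (0.5, 1.0, 1.5 and 2.0 h), 0.804, 0.841, 0.954 and 1.10 at 2.5, 3.0, 3.5 and 4.0 h (middle), and 1.26, 1.11, 1.30 and 1.19 at 4.5, 5.0, 5.5 and 6.0 h (late). All 4 late arrays lay above all 4 early ones, and the climb began after 3.0 h. Late minus early was 0.54 ± 0.09 (log2 difference ± standard error; limma, adjusted p = 7.33e-04). Both probe sets rose, 1418648_at by 0.45 ± 0.10 and 1418649_at by 0.64 ± 0.11. The level at 5.5 h was 1.58 times that at 0 h. The window of Egln3 holds the ACGTG shown above.

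Egln1 encodes the main prolyl hydroxylase that restrains HIF in most tissues. Its mean ratio was 1.26 at 0 h, 1.14, 0.999, 0.929 and 1.00 early, 0.874, 1.01, 0.949 and 0.867 in the middle window, and 1.08, 0.944, 1.04 and 1.02 late. The highest values were those of the first arrays, and early and late arrays overlapped. Late minus early was 0.01 ± 0.07 (limma, adjusted p = 0.974). The smooth course passed (adjusted p = 0.0365) but was lost when the 0, 0.5, 1.0, 1.5, 2.5 or 3.5 h array was left out (limma, adjusted p up to 0.367), after quantile normalization (0.181), with 1 probe set (0.174) and with a spline of 5 df (0.0644). Its 2 probe sets correlated at 0.131 over the 13 arrays. Probe set 1451110_at, at 1.40 on the 0 and 0.5 h arrays and 0.742 at 4.0 h, passed the smooth test (adjusted p = 0.00558), and 1423785_at did not (adjusted p = 0.190).

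Hif1a itself, the gene of the oxygen-controlled subunit, fell by a small amount. Its mean ratio was 1.02 at 0 h, 1.08, 1.16, 1.14 and 1.15 early, 0.975, 1.08, 0.943 and 0.878 in the middle window, and 0.919, 0.926, 0.952 and 0.974 late. Every late array lay below every early array, while the 3.0 h array reached the lowest early value to within rounding. Late minus early was -0.27 ± 0.06 (limma, adjusted p = 0.00603), and middle minus early was -0.23 ± 0.06 (adjusted p = 0.0164). The middle call was lost without the 4.0 h array (limma, adjusted p = 0.0506) and with 2.0 h moved to the middle window (adjusted p = 0.163). The 4 probe sets differed in size, since 1448183_a_at fell by 0.63 ± 0.10 and 1427418_a_at by 0.29 ± 0.09, whereas 1416035_at stood at -0.11 ± 0.08 and 1431981_at at -0.04 ± 0.07. With the single probe set 1416035_at in place of the mean, the late difference missed the threshold (limma, adjusted p = 0.382).

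Vegfa, the gene of the main growth factor for blood vessels, ran through a pulse. The mean ratio climbed from 0.727 at 0 h through 0.966, 1.16 and 1.38 to 1.80 at 2.0 h. It then stood at 1.32, 1.25, 0.902 and 0.874 in the middle window and at 1.02, 0.913, 0.938 and 0.892 late. The peak was 2.48 times the 0 h level, and 6.0 h was 1.23 times that level. The probe sets differed at 6.0 h, which was 1.59 times the 0 h level for 1420909_at and 0.948 times for 1451959_a_at. The smooth course passed (limma, adjusted p = 2.02e-04), as it did for each of the 2 probe sets, 1420909_at (0.586 at 0 h, 1.61 at 2.0 h) and 1451959_a_at (0.903 and 2.01).

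The window means cut across this pulse. Early minus 0 h was 0.83 ± 0.26 (limma, adjusted p = 0.0985) and late minus early -0.46 ± 0.17 (adjusted p = 0.0662). Both passed without the 0.5 h array, at 0.97 (limma, adjusted p = 0.0242) and -0.60 (adjusted p = 0.0142). With every array, late minus early of the single probe sets passed for 1451959_a_at, at -0.52 ± 0.17 (limma, adjusted p = 0.0455). It did not pass for 1420909_at, at -0.41 ± 0.18 (adjusted p = 0.157). Of all genes, 97.9% had a smaller range over the 13 arrays than Vegfa, whose log2 range was 1.31.

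Adm encodes adrenomedullin, a secreted peptide that widens vessels, and its mean passed no test. The mean ratio was 1.02 at 0 h, 1.03, 1.26, 1.00 and 0.910 early, 1.04, 0.915, 1.02 and 1.05 in the middle, and 0.944, 0.923, 1.01 and 1.06 late. Only the 1.0 h array stood out from this band. The smooth course gave adjusted p = 0.755 (limma). Its probe sets went apart in the middle window, where 1416077_at was at 1.10, 0.995, 1.21 and 1.21 and 1447839_x_at at 0.980, 0.842, 0.865 and 0.919. The latter passed the smooth test alone (limma, adjusted p = 0.0384).

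Of the list of receptor genes for these signals, some moved further than Adm. Of 7 receptor genes, 3 were higher and 2 lower late against early (11.7% and 9.29% of all genes). Ramp2, an accessory protein that turns the calcitonin receptor-like receptor into an adrenomedullin receptor, fell by 0.96 ± 0.10 (limma, adjusted p = 3.03e-05). Its ratio was 2.14 at 0 h, between 1.28 and 1.88 early and between 0.689 and 0.796 late, so no late array reached the early range.

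Pdk1, whose kinase switches off pyruvate dehydrogenase inside mitochondria and so limits the entry of pyruvate carbon into the citric acid cycle, fell into the middle window and stayed low. Its mean ratio was 1.48 at 0 h, 1.49, 1.38, 1.23 and 1.21 on the early arrays, 0.960, 0.935, 0.795 and 0.815 in the middle window, and 0.828, 0.755, 0.769 and 0.859 late. All middle and all late arrays lay below all early ones. Non-overlap in that direction was found for 15.0% of all genes in the middle and 11.1% in the late window (8.03% lay wholly above in the middle window), and of the 10 genes for Pdk1 and, by a margin within rounding, Hif1a in the middle window and for Ndrg1, Pdk1 and Hif1a in the late one. Egln3 was the gene whose late arrays all lay above, as for 14.1% of all genes. Middle minus early was -0.60 ± 0.08 (limma, adjusted p = 3.85e-04) and late minus early -0.72 ± 0.08 (adjusted p = 4.38e-05).

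The mean over the 4 probe sets of Pdk1 understates what 3 of them showed. Late minus early was -1.18 ± 0.16 for 1423747_a_at, -0.95 ± 0.10 for 1423748_at and -0.81 ± 0.11 for 1435836_at, each past the threshold. The remaining one, 1434974_at, was at 0.06 ± 0.07 (limma, adjusted p = 0.671). It lay between 0.830 and 1.17 on all arrays, and its correlation with the others over the 13 arrays was 0.066 to 0.134, against 0.904 to 0.966 among them.

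Car9, a cell surface carbonic anhydrase that helps cells to export acid, was low at 0 h and higher afterwards. Its single probe set was at 0.717 at 0 h, 1.23, 1.01, 1.07 and 0.996 early, 1.07, 1.00, 0.814 and 0.900 in the middle, and 1.14, 1.00, 1.00 and 0.926 late. The 0 h array was the lowest of all, and the 0.5 h array the highest at 1.72 times its level. Early minus 0 h was 0.58 ± 0.15 (limma, adjusted p = 0.0451). In the fit over probe sets the same values gave 0.0501. The call rests on 1 array at 0 h and was lost without the 1.0, 1.5, 3.0, 4.0, 5.0 or 5.5 h array (limma, adjusted p up to 0.0764) after quantile normalization (adjusted p = 0.237) and with an early window of 0.5 to 1.5 h (adjusted p = 0.0578). The smooth course did not pass (adjusted p = 0.249) except without the 0.5 h array (adjusted p = 0.0168).

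Glucose transport and glycolysis genes, which HIF also controls, gave a mixed picture. In the middle window 2 of 10 were higher and 5 lower than early (7.74% and 14.4% of all genes), and in the late window 0 and 3 (11.7% and 9.29%). The lactate exporter Slc16a3 fell by 0.59 ± 0.12 into the middle window and by 0.82 ± 0.12 into the late one (limma, adjusted p = 0.00448 and 3.21e-04). The middle call of Slc16a3 was lost with 2.0 h moved to the middle window (limma, adjusted p = 0.111). Hexokinase 2, Hk2, was higher by 0.65 ± 0.20 in the middle window (adjusted p = 0.0336). Its ratio was 0.420, 0.551, 0.833 and 1.04 on the early arrays and 1.00, 1.13, 1.08 and 0.986 on the middle ones. Most of the climb thus lay within the early window, and the 2.0 h array was already in the middle range. With 2.0 h moved to the middle window the Hk2 difference was 0.86 (limma, adjusted p = 0.00313). The Hk2 call was lost without the 0.5, 1.0, 2.5, 3.0, 3.5 or 4.0 h array (limma, adjusted p up to 0.0992).

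Ndrg1, a stress-responsive gene linked to growth arrest and differentiation, fell most of the 10. The mean ratio was 1.25 at 0 h, 1.27, 1.33, 1.42 and 1.47 early, 1.31, 1.19, 0.897 and 0.804 in the middle window, and 0.751, 0.649, 0.611 and 0.569 late. Values climbed until 2.0 h, and from then on each array lay below the one before. From the peak to 6.0 h the ratio dropped 2.58-fold, to 0.456 of the 0 h level. Late minus early was -1.09 ± 0.13 (limma, adjusted p = 6.33e-05), and its 5 probe sets gave -1.02 to -1.22, each past the threshold.

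The Ndrg1 decline began inside the middle window, which was therefore spread out. Middle minus early was -0.41 ± 0.13 (limma, adjusted p = 0.0393), and this call was lost without the 1.0, 1.5, 2.0, 3.5, 4.0, 5.0 or 5.5 h array (limma, adjusted p up to 0.117) after quantile normalization (adjusted p = 0.129) and with 2.0 h moved to the middle window (adjusted p = 0.284). The smooth course, which needs no windows, gave adjusted p = 3.82e-08, rank 42 of 18193 genes by p. No HIF core can be shown for it, as its promoter was not in the table.

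Ddit4 encodes an inhibitor of mTORC1, the kinase complex that drives growth, and is induced by low oxygen, energy shortage and other stress. Its single probe set was at 1.50 at 0 h, dipped to 0.990 at 0.5 h, and stood at 1.52, 1.78 and 1.59 on the other early arrays. It was at 1.00, 0.777, 0.730 and 0.818 in the middle window and at 0.832, 0.822, 0.975 and 1.07 late. The 0.5 h array was thus the only early one within the middle range. Middle minus early was -0.80 ± 0.15 (limma, adjusted p = 0.00263), late minus early -0.64 ± 0.15 (adjusted p = 0.00754), and the peak at 1.5 h was 2.44 times the trough at 3.5 h. With 2.0 h moved to the middle window the middle call was lost (limma, adjusted p = 0.117).

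P4ha1, the catalytic subunit of the prolyl hydroxylase that stabilises collagen, showed no change that passed a test. The mean ratio was 1.09 at 0 h, 1.07, 1.01, 0.979 and 1.10 early, 0.981, 0.951, 0.993 and 0.973 in the middle, and 1.13, 1.03, 1.17 and 0.979 late. Its whole log2 range of 0.30 was larger than that of 17.9% of genes. Late minus early was 0.05 ± 0.06 (limma, adjusted p = 0.668), and the smooth course gave adjusted p = 0.549. The 2 P4ha1 probe sets correlated at 0.174 over the 13 arrays. Each had a larger log2 range than their mean, 0.35 for 1426519_at and 0.39 for 1452094_at.

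The genes most like each of the 10, by Pearson correlation of log2 ratios over the same 13 arrays, are a description of shared shape. For Ndrg1 they were Msmo1 (r = 0.990) and Hmgcs1 (0.982), both enzymes of cholesterol synthesis. For Pdk1 they were Heyl (0.987), a Notch target repressor, and Serpinb9 (0.983). Vegfa was closest to Rbm12 (0.968) and Il17ra (0.946), Ddit4 to Tbk1 (0.960) and Mcf2l (0.934), and Hif1a to Sntb1 (0.936) and Slc30a4 (0.934). Egln3 was closest to Tprkb (0.950) and Lclat1 (0.942), and Egln1 to S100pbp (0.964) and Nrd1 (0.945). The best matches were weaker for Car9 (Gm9947 at 0.901 and Klhl32 at 0.870), P4ha1 (Ccdc127 at 0.846 and Prdm15 at 0.825) and Adm (Aqp4 at 0.845 and Insyn1 at 0.825). Among the 10 genes themselves, Ndrg1 and Pdk1 correlated at 0.795 and Pdk1 and Hif1a at 0.790, while Ndrg1 and Egln3 stood at -0.932. These courses share their arrays and a common trend in time.

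**Figure D3:**
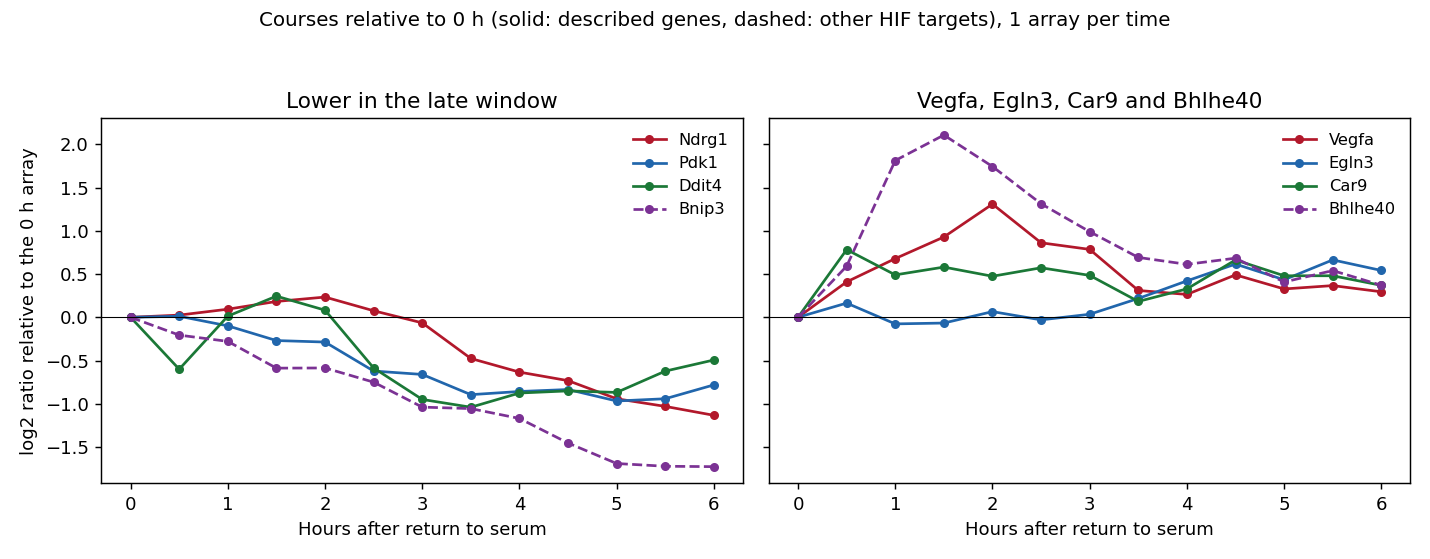
Log2 ratio relative to the 0 h array (y axis) against hours after the return to serum (x axis); solid lines are described genes, dashed lines are the HIF targets Bnip3 and Bhlhe40, with 1 array at each time. On the left Ndrg1, Pdk1, Ddit4 and Bnip3 end below their 0 h level; on the right Bhlhe40 and Vegfa peak at 1.5 and 2.0 h.

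The study was a search for oscillation, and none was called here. A cosine and sine with a period of 2 h on top of a spline trend gave adjusted p = 0.998 for each of the 10 genes (limma), with fitted amplitudes from 0.01 for P4ha1 to 0.18 for Car9 on the log2 scale. Car9 was the only one of them with an unadjusted p under 0.05 (F = 4.81, limma). Over all 18193 genes 0 were called (0% of genes), and 721 (3.96%) had an unadjusted p under 0.05.

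The wider oxygen pathway was read from a list of 54 further genes, 49 of them measured. Against 0 h, 2 of 49 rose and 0 fell in the early window, beside 1.46% and 1.81% of all genes. Bhlhe40, a circadian repressor, rose by 1.56 ± 0.39 (limma, adjusted p = 0.0447) and peaked at 2.67 at 1.5 h from 0.619 at 0 h. Leaving out the 1.0, 1.5, 2.0, 3.0, 3.5, 4.5, 5.0, 5.5 or 6.0 h array ended that call (limma, adjusted p up to 0.0759). So did quantile normalization (adjusted p = 0.188, limma), an early window of 0.5 to 1.5 h (0.123) and a variance trend with a robust prior (0.0513). Edn1, the vessel-constricting peptide endothelin 1, rose by 1.25 ± 0.26 (adjusted p = 0.0213), from 0.465 at 0 h to 1.53 at 0.5 h. Quantile normalization ended this call too (limma, adjusted p = 0.169).

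Into the middle window 4 of 49 rose and 18 fell (7.74% and 14.4% of all genes), with a median of -0.13 against -0.00087 over all genes, and into the late window 6 rose and 16 fell (11.7% and 9.29%), with a median of -0.08 against 0.02. The largest late fall was that of Bnip3, a mitochondrial protein of mitophagy and cell death, at -1.23 ± 0.11 (limma, adjusted p = 9.25e-06). Its ratio dropped from 2.08 at 0 h to 0.628 at 6.0 h, with all late arrays (0.628 to 0.759) under all early ones (1.38 to 1.80). Bhlhe40 followed with a fall of 1.06 ± 0.25 (adjusted p = 0.00640). Mxi1, an antagonist of Myc, fell by 0.63 ± 0.09 into the middle window (adjusted p = 5.58e-04), and so did the chemokine receptor gene Cxcr4, by 0.78 ± 0.17 (adjusted p = 0.00606). With 2.0 h moved to the middle window the Cxcr4 call was lost (limma, adjusted p = 0.0871). The smooth course passed for 29 of 49 genes (38.0% of all genes), led by Bnip3 (adjusted p = 1.90e-08), Bhlhe40 (2.80e-07), Ramp2 (6.82e-07), Mxi1 (2.52e-06) and Insig2 (1.09e-05), an inhibitor of sterol synthesis.

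Of 10 genes listed under oxygen sensing and HIF subunits, 0 rose and 4 fell in the middle and likewise in the late window. Of all genes, 14.4% and 9.29% fell there. The same 4 fell in both windows, namely Arnt, Cited2, Crebbp and Ep300. Egln2, Hif1an, Vhl, Epas1, Hif3a and Arnt2 were called in neither. Cited2, a HIF target that competes with HIF for its coactivators, fell by 0.88 ± 0.12 into the middle window and 0.77 ± 0.12 into the late one (limma, adjusted p = 3.24e-04 and 3.09e-04). It had been at 2.16 at 0.5 h, 1.13 at 0 h and 0.975 at 6.0 h.

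**Figure D4:**
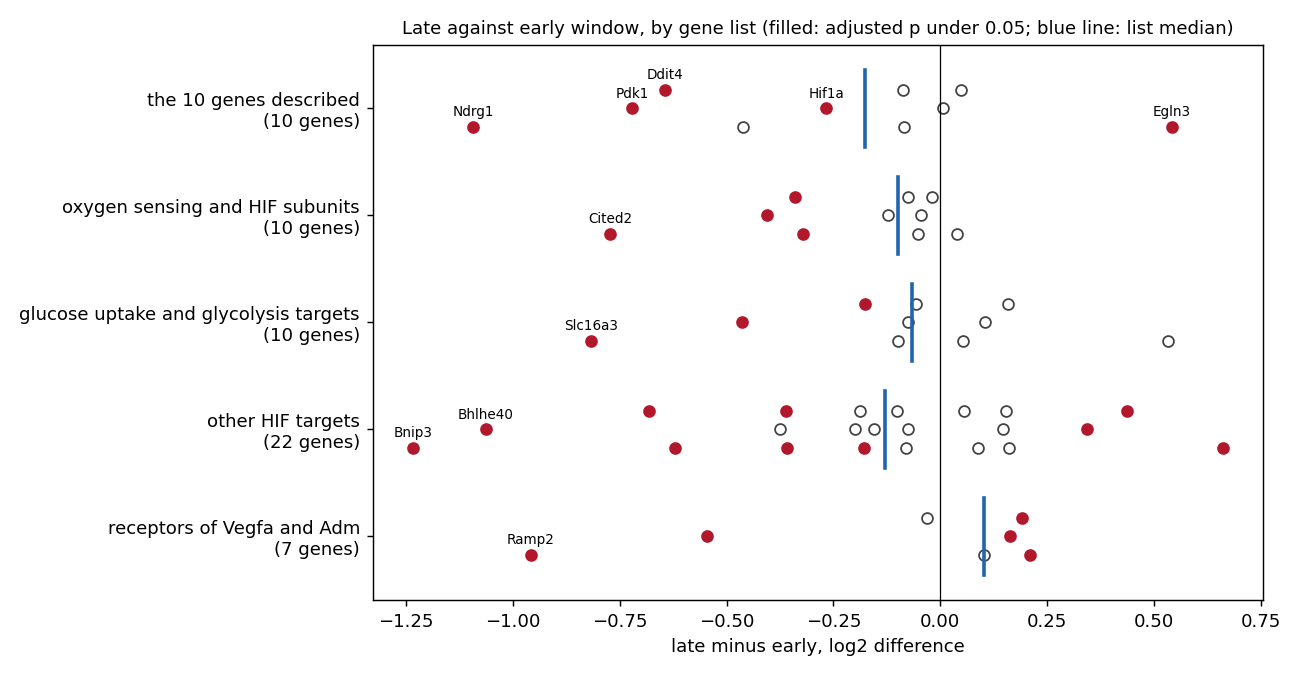
Late minus early log2 difference (x axis) for each gene in 5 lists (y axis, with the number of genes measured); filled red points have an adjusted p under 0.05 over all genes, open points do not, and the blue line is the median of the list. The medians of 4 lists lie below 0, and that of the receptor genes, 0.10, lies above it.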

How the data were processed

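Total RNA of 13 C2C12 cultures was measured on 1 array each. The deposited values are linear ratios. RMA is named in the submitters' processing notes. Its version, and how the ratios were formed, are not given in the sources used here. Of 45037 non-control probe sets, 34945 name 1 gene, 932 several and 9160 none; 36481 held exactly 1 array at a ratio of 1 (22 of the 25 described here). A gene's value is the mean log2 ratio over probe sets naming only that gene. The gene IDs of all 10 genes matched the RefSeq table.

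Window means, splines (4 df) and the 2 h oscillation (spline trend of 3 df) were fitted to all 13 arrays and all genes with limma 3.58.1 (lmFit, eBayes, two-sided) in R 4.3.3, and again over all probe sets. Genes with a p below 0.05 after Benjamini-Hochberg adjustment were called, and 0 h was assumed to vary like the other windows. The fits were tested on simulated data with independent noise on each array, which does not cover noise shared by neighbouring times. Tables and figures were made in Python 3.11.15 with numpy 2.4.6, matplotlib 3.10.9 and pandas 2.3.3. Named pathway genes were at most the 5 with the largest change among those called in each test. Besides these, all 10 genes of the oxygen sensing and HIF subunit list were named, called or not. The 2 genes most like each described gene were named as well. Genes, lists and tests were chosen with earlier results of these data known. Alternatives were scaling, centring, the variance prior, 1 probe set per gene, other windows and curves, and each array left out.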

Additional observations from a re-analysis of the deposited data

How the results depend on the processing

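The number of arrays limits the precision, and each comparison with 0 h rests on 1 array. No paired analysis was possible because each time has 1 culture and 1 array. Late minus early called 5 of the 10 genes under each scaling, prior and window tried, and 4 with 1 probe set per gene. Leaving out 1 array gave 5 to 6 of 10 there and 3103 to 3868 of all genes, 2 to 4 and 2840 to 4084 for middle minus early, 6 to 7 and 6023 to 6756 for the smooth course, and 0 to 3 and 298 to 1431 for early minus 0 h; 2 in the middle comparison was without 4.0 h, and 3 early without 0.5 h. Of all genes, early minus 0 h called 1431 without 0.5 h, 377 without 1.0 h, 298 without 1.5 h and 363 without 5.0 h, against 594 with every array. Early minus 0 h called 0 of 10 genes after quantile normalization (45 of all genes, 84.4% of them higher against 44.6%) and 0 with an early window of 0.5 to 1.5 h (250 of all genes). It also called 0 without the 1.0, 1.5, 3.0, 4.0, 5.0 or 5.5 h array. With 2.0 h moved to the middle window, middle minus early called 1 of 10, Pdk1 (2284 of all genes), and a straight line in time called 4 of 10 (3704 of all genes). Oscillation called 0 in every setting run, periods of 1.5 and 2.5 h among them. Without the 2.5 to 4.0 h arrays, a fit chosen after the data were seen, early minus 0 h called 1 and late minus early 5.

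Changes of sign arose where neither value passed. After quantile normalization early minus 0 h was -0.0553 for Egln3 and 0.0529 for Ddit4. With 1 probe set it was 0.0768 for P4ha1, and middle minus early was 0.000686 for Egln1 and 0.115 for Adm. With 2.0 h in the middle window, Vegfa was at 0.0338. Egln1 late minus early was -0.00240 after median centring and -0.0218 with a late window of 5.0 to 6.0 h. Leaving out 1 array, it ran from -0.0367 to 0.0619 for Egln1 and from -0.152 to 0.00570 for Adm; middle minus early ran from -0.115 to 0.0424 for Adm, and early minus 0 h from -0.0260 to 0.0541 for Egln3, -0.168 to 0.113 for Ddit4 and -0.0598 to 0.0974 for Adm.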
